A study of Mus musculus with 18 samples.

Results

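The genes described here are regulators of small GTPases and of membrane traffic: the Rab GTPases, proteins named as Rab partners, the Tbc1d, Arhgap, Arhgef, Dock and Fgd families, and the Rasa, Rasgrp and Rapgef regulators of Ras and Rap. They were taken by symbol: names that start with Rab and a digit, Tbc1d, Arhgap, Arhgef, Dock and a digit, Fgd and a digit, Rasa, Rasgrp or Rapgef. The source was the table of group comparisons that the authors deposited, which lists only called changes. A gene thus entered only if it had a called change between any of the 6 groups used here. This gave 74 genes with 108 transcript entries, of 5390 named genes with a row between any of the 6 groups used here. The members comprised 17 Rab GTPases, 5 Rab partners, 12 Tbc1d, 16 Arhgap, 6 Arhgef, 6 Dock, 4 Fgd, 3 Rasa, 2 Rasgrp and 3 Rapgef genes.

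Small GTPases are switches that are active with bound GTP and inactive with bound GDP. Guanine nucleotide exchange factors (GEFs) load them with GTP, and GTPase-activating proteins (GAPs) speed GTP hydrolysis and turn them off. Rab GTPases mark membrane compartments and direct vesicles between them, Rac and Cdc42 shape the actin cytoskeleton, and Ras and Rap relay signals from surface receptors and control adhesion. In macrophages these systems serve phagocytosis, phagosome maturation, secretion, migration and antigen presentation. Most Tbc1d proteins carry the catalytic domain of Rab GAPs, Arhgap proteins are GAPs and Arhgef, Dock and Fgd proteins are GEFs of GTPases of the actin cytoskeleton, Rasa proteins are Ras GAPs, and Rasgrp and Rapgef proteins are GEFs of Ras and Rap.

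RNA came from RAW264.7, a mouse macrophage-like cell line, as 18 samples in 6 groups of 3. Construct cells (labelled p2080) carried the lentiviral vector pINDUCER20-mCITED1, which expresses mouse CITED1, a transcriptional co-regulator, when doxycycline is added. They received doxycycline with interferon-gamma, interferon-gamma alone, doxycycline alone, or neither. Parental cells (labelled RAW), which lack the construct, received doxycycline or nothing. The protocol gives 100 ng/mL for doxycycline and 200 U/mL for interferon-gamma unless specified otherwise. No group of parental cells with interferon-gamma was among these samples, and the sources used here do not say whether the construct cells were 1 clone or whether samples of a group were separate cultures.

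The deposited table gives 1 linear fold change, 1 FPKM total and 1 q-value per transcript and pair of groups, and no value per sample, so no SD, no test over samples and no depth can be attached to a value here. It lists only changes of at least 2-fold with a Cuffdiff q of 0.05 or less, and a gene without a row is therefore not shown to be unchanged. Levels below are FPKM, that is fragments per length of transcript and size of library, rebuilt for each group from the fold and the total, 1 value per group. Of 327 member levels that several comparisons gave more than once, the median spread was 0.0645% and the largest 0.511%, which measures rounding and not replicate error. A level was available in all 6 groups for 50 entries. Cited1 itself had a rebuilt level of 86.7 FPKM with both treatments, 11.5 FPKM with interferon-gamma alone, 168 FPKM with doxycycline alone and 0.703 FPKM in untreated construct cells, and had no row against a parental group. Of 10 macrophage markers 5 had rows (Adgre1, Itgam, Ptprc, Fcgr1 and Spi1), and of 18 markers of T cells, B cells, neutrophils, fibroblasts and epithelial cells 0 had a row, which does not show that they were at 0. In bulk RNA, fewer cells of a type and less RNA per cell cannot be told apart.

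Of the 74 members, 63 were called in at least 1 of the 2 comparisons of interferon-gamma with no interferon-gamma in construct cells (85.1%), beside 76.6% of all 5390 listed genes. Genes were listed only through a called change, and all 74 members had one between a group with and a group without interferon-gamma. A high share was thus largely set by the listing. For these comparisons, "with doxycycline" stands for both treatments over doxycycline alone, and "without" for interferon-gamma alone over untreated cells. With doxycycline present in both groups, 37 of the 74 members were higher and 20 were lower with interferon-gamma in the authors' deposited table (Cuffdiff q of 0.05 or less), which is 50% and 27.0% of them. The background over all 5390 listed genes was 33.7% higher and 33.9% lower. Without doxycycline, 27 members were higher (36.5%) and 15 were lower (20.3%) with interferon-gamma, against a background of 25.7% higher and 24.3% lower, and Tbc1d1 had called entries in both directions. The median deposited fold of the members that rose was 2.74 with doxycycline and 2.50 without it in the authors' deposited table, beside 3.14 and 2.90 for all listed genes that rose. For falls the medians in the authors' deposited table were 4.20 with doxycycline and 2.96 without it, beside 2.91 and 2.72 for all listed genes that fell.

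The scale between groups cannot be read from a table that lacks changes under 2-fold. Of 4515 listed entries of at least 1 FPKM with known levels, with doxycycline 2298 were at least 2-fold higher, 2024 at least 2-fold lower and 193 in between, so that their median log2 ratio of 1.02 lies at the edge of the gap. Without doxycycline 1695 were higher, 1464 lower and 541 in between, with a median of 0.65. Rescaling to a median of 0, the alternative scaling applied to the called rows, therefore takes out rises near 2-fold by construction and cannot add falls. Under it, 8 members were at least 2-fold higher and 20 lower with doxycycline, and 10 were higher and 15 lower without it. The share of higher calls among the members was then 28.6%, against 64.9% as deposited, with doxycycline, and 40%, against 64.3% as deposited, without it. For all listed genes these shares were 28.1%, against 49.9% as deposited, with doxycycline, and 33.9%, against 51.4% as deposited, without it. Arhgef2, Rab11fip1 and Rab5a, all near 2-fold higher with doxycycline as deposited, were below the median entry after rescaling. The rescaled counts given with each family show how many of its rises lay well past 2-fold, and do not measure a scale.

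Members called higher in both interferon-gamma comparisons numbered 21, which is 56.8% of those higher with doxycycline and 77.8% of those higher without it, beside 62.9% and 82.4% for all listed genes. Members called lower in both numbered 13, or 65% and 86.7%, beside 58.4% and 81.4% for all listed genes.

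**Figure D1:**
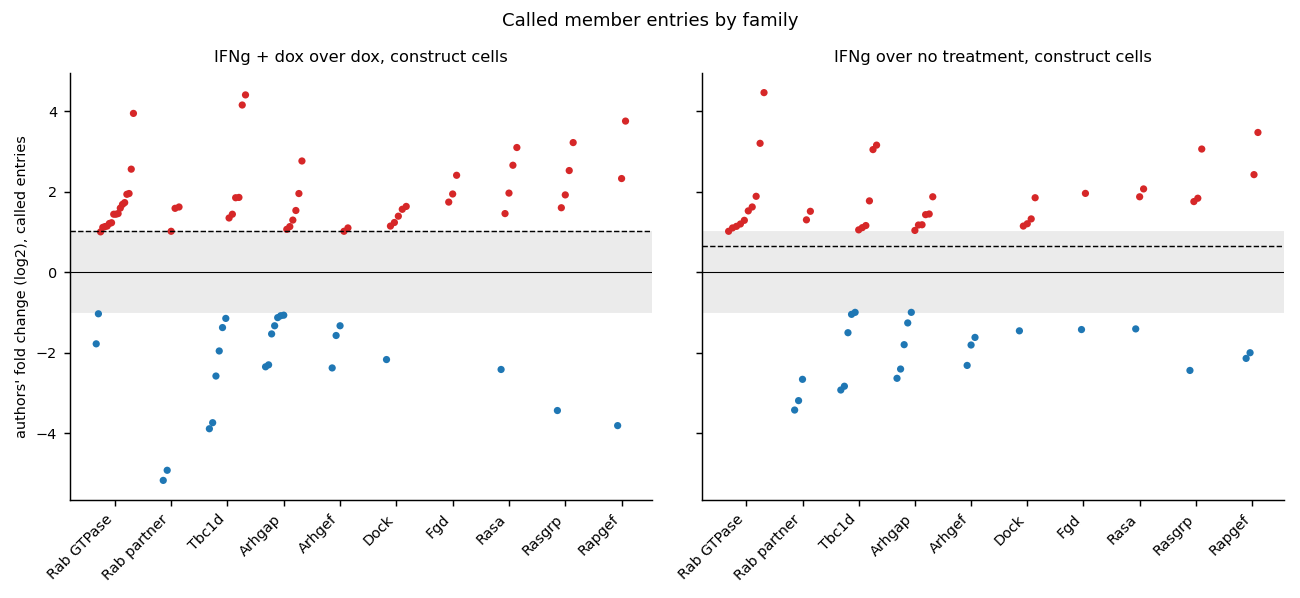
The authors' log2 fold change (vertical) of each called member entry by family, for interferon-gamma in construct cells with doxycycline in both groups (left) and without it (right), with the range under 2-fold in grey and a dashed line at the median log2 ratio of all listed entries. Red points above 0 rose and blue points below 0 fell. Most Rab GTPase points in the left panel lie less than 2-fold from the dashed line at 1.02. The 13 higher Rab GTPase calls there were 2 after rescaling to that line.

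Among the Rab GTPases, 13 of 17 rose and 2 fell with interferon-gamma in the presence of doxycycline, and 9 rose and 0 fell without it. The background over all 5390 listed genes was 33.7% higher and 33.9% lower with doxycycline, and 25.7% higher and 24.3% lower without it. This background also applies to the counts of each family below, and no family was tested against it. After rescaling, the Rab GTPase counts were 2 higher and 2 lower with doxycycline and 3 higher and 0 lower without it. Rab43, a Golgi-associated Rab with a known part in cross-presentation by mouse dendritic cells, had 118 FPKM with interferon-gamma alone, 6.78 FPKM with doxycycline alone and 5.34 FPKM in untreated construct cells. In parental cells it had 5.62 FPKM with doxycycline and 6.04 FPKM without, and its level with both treatments is not listed. Its rise of 22.0-fold in the authors' deposited table was the largest among the members without doxycycline. The annotation places exons of Rab43 and of Gm45140, a protein coding gene on the same strand, over each other, so reads could be shared between them. In all, 24 members had an exon overlapped by another gene, 22 of them on the other strand.

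Rab39, which acts on phagosomes and late endosomes, had 3.90 FPKM with both treatments and 3.24 FPKM with interferon-gamma alone. The 4 groups without interferon-gamma lay between 0.224 and 0.352 FPKM, and the rises in the authors' deposited table were 15.4-fold with doxycycline and 9.19-fold without. Rab20, found on endosomes and phagosomes of macrophages, had 33.9 FPKM with both treatments, 16.2 FPKM with interferon-gamma alone, 5.76 FPKM with doxycycline alone and 5.63 FPKM untreated, against 9.80 FPKM with doxycycline and 9.12 FPKM without in parental cells. Rab20 was thus highest with both treatments, and it rose 5.89-fold with doxycycline and 2.87-fold without in the authors' deposited table. Rab13, known for transport to cell junctions, and Rab29, which acts at the Golgi and lysosomes, rose in both comparisons. The folds of Rab13 in the authors' deposited table were 2.74 with doxycycline and 3.07 without, and those of Rab29 were 3.87 and 2.29.

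The Rabs of the general transport routes made up most other rises. Rab5c, of early endosomes, had the highest level listed for a member, with 279 FPKM with both treatments, 121 FPKM with doxycycline alone and 115 FPKM untreated, against 123 FPKM with doxycycline and 125 FPKM without in parental cells. It rose 2.31-fold with doxycycline in the authors' deposited table and had no row without it. Rab5a (early endosomes), Rab11a (recycling endosomes), Rab1a (transport from the endoplasmic reticulum to the Golgi), Rab22a (endosomes), Rab33b (Golgi and autophagy) and Rab7b (transport from endosomes to the Golgi) were likewise called with doxycycline only. Their folds in the authors' deposited table ranged from 2.00 for Rab5a to 3.31 for Rab7b, and whether they differ between the 2 comparisons was not tested. Rab6a, which acts in transport at the Golgi, rose 2.34-fold with doxycycline and 2.14-fold without in the authors' deposited table, and Rab3d, of secretory granules, rose 2.20-fold without it. The 2 falls with doxycycline were those of Rab40c, by an entry annotated as a processed transcript (3.44-fold), and of Rab23, known from Hedgehog signalling (2.05-fold), both in the authors' deposited table.

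Promoters are shown for 3 of 4 members that rose with interferon-gamma alone and had a letter match at a RefSeq start. The matches are to motifs of interferon-activated factors. RefSeq windows of 250 bases before to 50 bases after the start (GRCm38.p6) were found for 60 of the 74 members, 89 windows in all, and were searched on both strands. The letters TTCNNNGAA, as in gamma-activated sites, were in 6 of the 89 windows (6.74%) and in 8.30% of all 32851 windows. The letters GAAA, any 2 bases and GAAA again, as in interferon-stimulated response elements, were in 2 windows (2.25%) and in 3.44% of all windows, and matches to both motifs may overlap. Rab19 had 1 TTCNNNGAA and 2 response element matches, and Arhgap15 had 1 response element match. Arhgap25, Arhgap5, Arhgap27, Dock4 and Rab11a had 1 TTCNNNGAA match each. Arhgap15 and Arhgap25 each had 2 windows, of which only the 1 with the match is shown. The window of Arhgap5 is counted but not shown, since the annotation also has transcripts of this gene that start further upstream, and the window may not be its promoter. The 4 windows of Rab43 and the single windows of Rab39 and Rab20 had 0 matches. In each line below the capitals mark the matched letters, read on the strand of the gene.
Rab19, chr6:39381103-39381402, plus strand: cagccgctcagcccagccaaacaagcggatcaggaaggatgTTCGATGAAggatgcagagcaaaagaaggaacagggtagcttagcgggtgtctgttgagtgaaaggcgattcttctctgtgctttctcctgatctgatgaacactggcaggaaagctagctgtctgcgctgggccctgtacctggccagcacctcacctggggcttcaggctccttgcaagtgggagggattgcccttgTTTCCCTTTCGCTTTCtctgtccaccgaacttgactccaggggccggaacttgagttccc
Arhgap15, chr2:43787105-43787404, plus strand: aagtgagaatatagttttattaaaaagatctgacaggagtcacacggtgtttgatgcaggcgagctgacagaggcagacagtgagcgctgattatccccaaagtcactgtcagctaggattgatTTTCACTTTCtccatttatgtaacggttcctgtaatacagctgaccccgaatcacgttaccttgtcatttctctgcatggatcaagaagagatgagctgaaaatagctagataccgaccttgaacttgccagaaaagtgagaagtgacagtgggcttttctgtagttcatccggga
Arhgap25, chr6:87496278-87496577, minus strand: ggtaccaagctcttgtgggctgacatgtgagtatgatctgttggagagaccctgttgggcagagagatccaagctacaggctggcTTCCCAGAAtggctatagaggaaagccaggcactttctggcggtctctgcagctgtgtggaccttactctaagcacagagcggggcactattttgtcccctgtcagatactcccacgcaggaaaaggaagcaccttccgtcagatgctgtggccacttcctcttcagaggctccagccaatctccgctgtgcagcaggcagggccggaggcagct
In the Rab19 window the TTCNNNGAA match starts 209 bases before the start site, and the response element matches, which read TTTC, any 2 bases and TTTC on this strand, start 10 and 4 bases before it and overlap each other. The match of Arhgap15 starts 126 bases and that of Arhgap25 165 bases before the start. A match describes letters only, and no binding was measured.

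**Figure D2:**
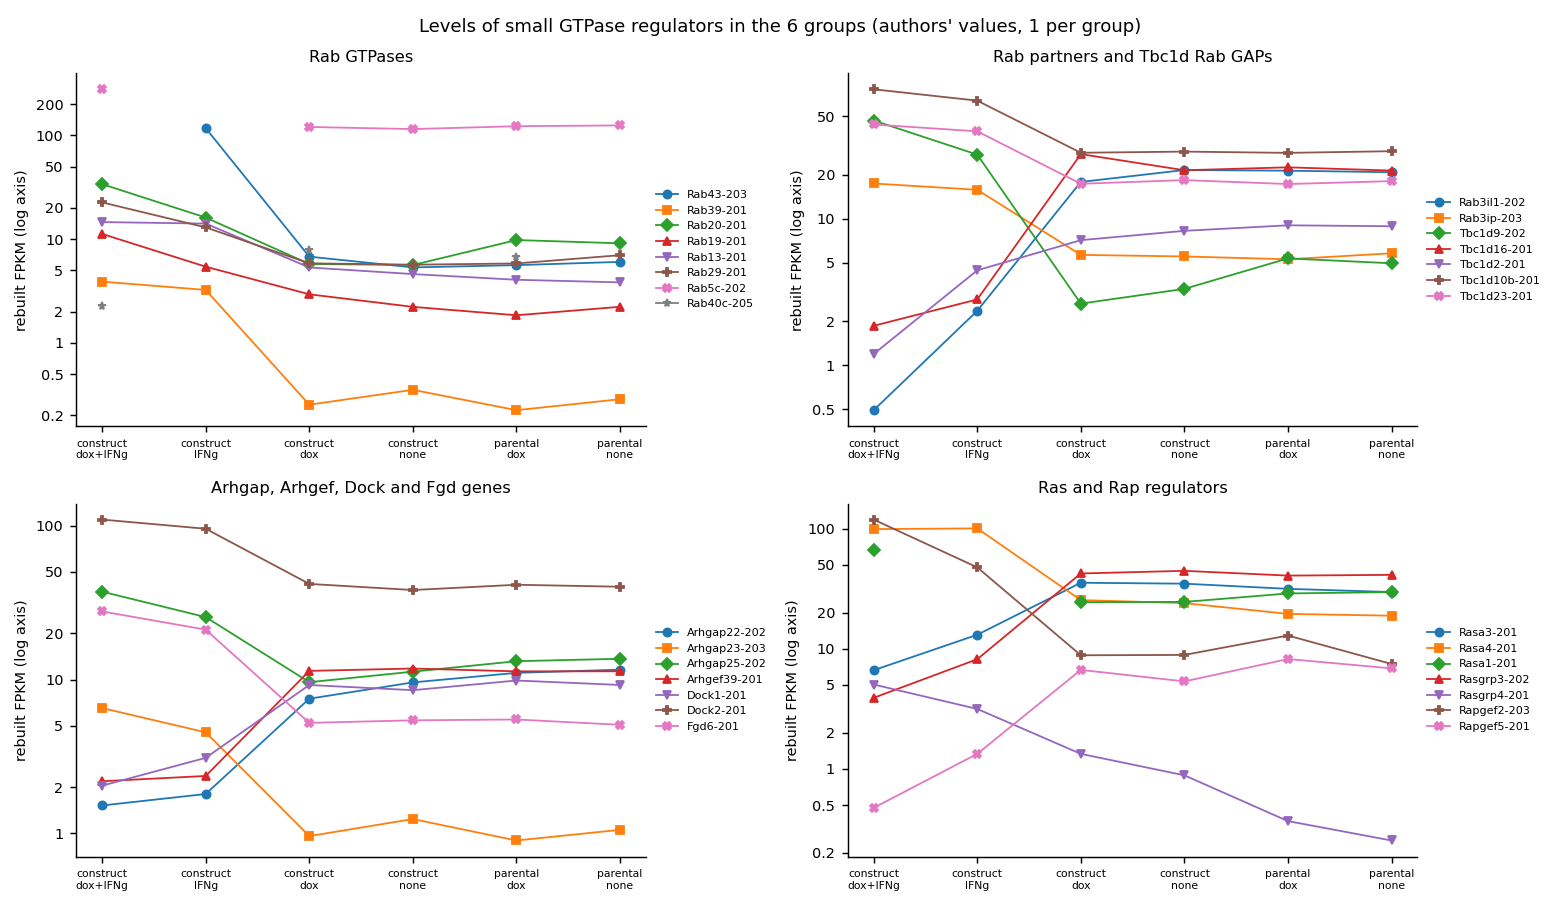
Rebuilt FPKM (log axis) of members in the 6 groups, 1 value of the authors per group and no error bars, for Rab GTPases, Rab partners and Tbc1d genes, Arhgap, Arhgef, Dock and Fgd genes, and Ras and Rap regulators. Lines join groups of 1 entry as a guide and points are left out where no row gives a level; Rab39 stands at 3.90 and 3.24 FPKM with interferon-gamma and at 0.224 to 0.352 FPKM in the other groups.

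Of the 5 Rab partners, Rab3il1 fell furthest. Rab3il1 (GRAB), an exchange factor for Rab8 and Rab3, had 0.494 FPKM with both treatments, 2.36 FPKM with interferon-gamma alone, 17.9 FPKM with doxycycline alone and 21.5 FPKM untreated, against 21.3 FPKM with doxycycline and 20.8 FPKM without in parental cells. Its falls in the authors' deposited table were 36.2-fold with doxycycline and 9.15-fold without, the largest among the members in both comparisons. Entry Rab3il1-208 fell 30.4-fold with doxycycline and 6.34-fold without in the authors' deposited table, and entry Rab3il1-201 fell 10.8-fold without it. Rab3ip (Rabin8), a related Rab8 exchange factor, went the other way, with 17.4 FPKM with both treatments, 15.8 FPKM with interferon-gamma alone, 5.68 FPKM with doxycycline alone and 5.54 FPKM untreated. Rab3ip rose 3.07-fold with doxycycline and 2.85-fold without in the authors' deposited table, and Rab11fip1, a Rab11 effector, rose 2.02-fold and 2.46-fold by different entries. Among the Rab partners 2 rose and 1 fell in each comparison, while after rescaling 0 were higher and 1 lower.

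Calls of the 12 Tbc1d genes went in both directions, as those of all listed genes did. With interferon-gamma, 4 rose and 5 fell in the presence of doxycycline, and 4 rose and 3 fell without it. After rescaling 1 was higher in each comparison, and 5 with doxycycline and 3 without it were lower. Tbc1d9 led the rises, with 46.9 FPKM with both treatments, 27.5 FPKM with interferon-gamma alone, 2.64 FPKM with doxycycline alone and 3.33 FPKM untreated, against 5.37 FPKM with doxycycline and 4.97 FPKM without in parental cells. It rose 17.8-fold with doxycycline and 8.25-fold without in the authors' deposited table, and its second entry rose 21.2-fold and 8.91-fold. Tbc1d16, a Rab4 GAP, had 1.86 FPKM with both treatments, 2.82 FPKM with interferon-gamma alone, 27.7 FPKM with doxycycline alone and 21.5 FPKM untreated, against 22.5 FPKM with doxycycline and 21.4 FPKM without in parental cells. Its falls in the authors' deposited table were 14.9-fold with doxycycline and 7.62-fold without. Tbc1d2b fell 3.89-fold and 2.00-fold, and Tbc1d31, a centrosomal protein, fell 2.60-fold and 2.07-fold, with and without doxycycline in the authors' deposited table. Tbc1d2 (Armus), a Rab7 GAP, and Tbc1d4 (AS160), which controls glucose transporter traffic, were called lower with doxycycline only. Their falls in the authors' deposited table were 5.99-fold and 2.22-fold. Without doxycycline Tbc1d2 was 1.86-fold lower with interferon-gamma by rebuilt levels and had no row. The level of Tbc1d4 with interferon-gamma alone is not listed. Tbc1d10b, a GAP of Rab27 and Rab35, and Tbc1d23, which tethers vesicles at the Golgi, rose between 2.15-fold and 2.71-fold in both comparisons in the authors' deposited table. Tbc1d14, a Rab11 binding protein of autophagy, rose 2.07-fold without doxycycline in the authors' deposited table.

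Among the 16 Arhgap genes, 5 rose and 6 fell with interferon-gamma in the presence of doxycycline, and 5 rose and 4 fell without it, while after rescaling 1 was higher in each comparison and 6 with doxycycline and 4 without it were lower. Arhgap22, a Rac GAP, had 1.52 FPKM with both treatments, 1.81 FPKM with interferon-gamma alone, 7.51 FPKM with doxycycline alone and 9.58 FPKM untreated. It fell 4.94-fold with doxycycline and 5.31-fold without in the authors' deposited table. Arhgap24 (FilGAP), another Rac GAP, fell 6.23-fold without doxycycline in the authors' deposited table, to 0.422 FPKM against 2.63 FPKM in untreated cells, and its level with both treatments is not listed. Arhgap18, Arhgap31 (CdGAP) and Arhgap39 were called lower with doxycycline only, by 2.19-fold to 2.90-fold in the authors' deposited table. Arhgap19 and Arhgap11a, GAPs of dividing cells, fell in both comparisons. Arhgap19, under 1 FPKM in every group, fell 5.11-fold with doxycycline and 2.00-fold without in the authors' deposited table, and Arhgap11a fell by 2.10-fold to 3.49-fold over 2 entries.

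Arhgap23 and Arhgap25 had the largest rises of this family with doxycycline, and Arhgap23, Arhgap5 and Arhgap15 without it. Arhgap23 had 6.53 FPKM with both treatments, 4.54 FPKM with interferon-gamma alone, 0.962 FPKM with doxycycline alone and 1.24 FPKM untreated, rises of 6.78-fold with doxycycline and 3.66-fold without in the authors' deposited table. Arhgap25, a Rac GAP of phagocytes, had 37.2 FPKM with both treatments, 25.4 FPKM with interferon-gamma alone, 9.62 FPKM with doxycycline alone and 11.3 FPKM untreated, against 13.2 FPKM with doxycycline and 13.6 FPKM without in parental cells. Its rises in the authors' deposited table were 3.87-fold and 2.26-fold. Arhgap15, also a Rac GAP of leukocytes, rose 2.69-fold without doxycycline in the authors' deposited table, to 12.8 FPKM with interferon-gamma alone against 4.77 FPKM untreated. Arhgap5 rose in both comparisons, with folds of 2.25 to 2.89 over 2 called entries in the authors' deposited table. Near 2-fold in the authors' deposited table were Arhgap1 (a Cdc42 GAP, 2.09-fold) and Arhgap27 (2.19-fold) with doxycycline, and Arhgap26 (GRAF, 2.05-fold) without.

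Of the 6 Arhgef genes, 2 rose and 2 fell with interferon-gamma in the presence of doxycycline, and 0 rose and 2 fell without it, while after rescaling 0 were higher and 2 lower in each comparison. Arhgef39 had 2.18 FPKM with both treatments, 2.36 FPKM with interferon-gamma alone, 11.4 FPKM with doxycycline alone and 11.8 FPKM untreated, falls of 5.21-fold with doxycycline and 4.99-fold without in the authors' deposited table. Arhgef6 (alpha-PIX), a Rac and Cdc42 GEF, also fell in both, by 2.52-fold to 3.51-fold over 3 entries in the authors' deposited table. Arhgef2 (GEF-H1), a microtubule-bound GEF, and Arhgef25 (GEFT), under 2 FPKM, were called 2.02-fold and 2.14-fold higher with doxycycline in the authors' deposited table.

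Of the 6 Dock genes, 4 rose and 1 fell with interferon-gamma in the presence of doxycycline, and 3 rose and 1 fell without it, while after rescaling the counts were 0 higher and 1 lower with doxycycline and 1 higher and 1 lower without it. Dock2, the Rac GEF of leukocyte migration, had 109 FPKM with both treatments, 95.4 FPKM with interferon-gamma alone, 41.8 FPKM with doxycycline alone and 38.2 FPKM untreated, against 41.3 FPKM with doxycycline and 40.1 FPKM without in parental cells. It rose 2.62-fold with doxycycline and 2.50-fold without in the authors' deposited table. Dock1 (DOCK180), the Rac GEF of engulfment, went the other way, with 2.05 FPKM with both treatments, 3.10 FPKM with interferon-gamma alone, 9.22 FPKM with doxycycline alone and 8.53 FPKM untreated. Its falls in the authors' deposited table were 4.51-fold with doxycycline and 2.75-fold without. Dock10 rose 2.21-fold to 3.10-fold over its called entries, and Dock4 rose 2.35-fold with doxycycline, in the authors' deposited table. Dock6-201, at 1.65 FPKM or less, rose 2.95-fold with doxycycline and 3.60-fold without in the authors' deposited table. Among the 4 Fgd genes, which are Cdc42 GEFs, 3 rose and 0 fell with doxycycline and 1 rose and 1 fell without it, while after rescaling 1 was higher and 0 lower with doxycycline and 1 higher and 1 lower without it. Fgd6 had the largest folds, with 27.7 FPKM with both treatments, 21.1 FPKM with interferon-gamma alone, 5.23 FPKM with doxycycline alone and 5.43 FPKM untreated. The rises of Fgd6 in the authors' deposited table were 5.30-fold and 3.88-fold, and it stayed above 2-fold after rescaling in both comparisons.

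Each of the Rasa, Rasgrp and Rapgef families held rises and falls with interferon-gamma. Of the Ras GAPs, Rasa4 (CAPRI), which calcium recruits to membranes, had 99.2 FPKM with both treatments, 101 FPKM with interferon-gamma alone, 25.4 FPKM with doxycycline alone and 24.0 FPKM untreated, against 19.5 FPKM with doxycycline and 18.9 FPKM without in parental cells. It rose 3.90-fold with doxycycline and 4.19-fold without in the authors' deposited table. Rasa3, a GAP of Ras and Rap1, had 6.63 FPKM with both treatments, 13.1 FPKM with interferon-gamma alone, 35.5 FPKM with doxycycline alone and 34.9 FPKM untreated, against 31.6 FPKM with doxycycline and 29.7 FPKM without in parental cells. Rasa3 fell 5.35-fold with doxycycline and 2.66-fold without in the authors' deposited table, and Rasa1 (p120 RasGAP) rose 2.74-fold with doxycycline.

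Both Rasgrp genes, diacylglycerol-responsive exchange factors, were called in opposite directions. By entry Rasgrp3-202, Rasgrp3 had 3.91 FPKM with both treatments, 8.19 FPKM with interferon-gamma alone, 42.4 FPKM with doxycycline alone and 44.6 FPKM untreated. In parental cells this entry had 40.7 FPKM with doxycycline and 41.3 FPKM without. Rasgrp3-202 fell 10.9-fold with doxycycline and 5.44-fold without in the authors' deposited table. Entry Rasgrp3-201, also protein coding, had 17.6 FPKM with both treatments and 36.9 FPKM untreated. In parental cells Rasgrp3-201 had 36.5 FPKM with doxycycline and 35.6 FPKM without. Its levels with interferon-gamma alone and with doxycycline alone are not listed. Rasgrp4, known from mast cells, had 11.2 FPKM with both treatments, 9.56 FPKM with interferon-gamma alone, 1.20 FPKM with doxycycline alone and 1.15 FPKM untreated by its most abundant called entry. This entry, Rasgrp4-205, rose 9.31-fold with doxycycline and 8.33-fold without in the authors' deposited table. Entry Rasgrp4-201, also protein coding, was called higher too, at 5.05 FPKM with both treatments and 3.16 FPKM with interferon-gamma alone. Its rebuilt ratios were 3.78 with doxycycline and 3.57 without. Exons of Rasgrp4-201 overlap those of Fam98c on the other strand, and exons of Rasgrp4-201 and Rasgrp4-205 overlap the antisense gene Gm16282. The libraries were strand-specific, and the use of strand in counting is not given in the sources used here.

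Rapgef5 (MR-GEF) fell and Rapgef2 (PDZ-GEF1) rose. Rapgef5 had 0.474 FPKM with both treatments, 1.34 FPKM with interferon-gamma alone, 6.68 FPKM with doxycycline alone and 5.36 FPKM untreated, against 8.23 FPKM with doxycycline and 6.88 FPKM without in parental cells. These are levels of entry Rapgef5-201, which fell 14.1-fold with doxycycline and 4.01-fold without in the authors' deposited table. Entry Rapgef5-202, of higher summed FPKM without doxycycline, fell 4.42-fold there in the authors' deposited table. Rapgef5-202 had 1.80 FPKM with interferon-gamma alone and 7.97 FPKM untreated, and its level with both treatments is not listed. Of 3 Rapgef2 entries the most abundant was a processed transcript, with 119 FPKM with both treatments, 47.7 FPKM with interferon-gamma alone, 8.84 FPKM with doxycycline alone and 8.90 FPKM untreated. The protein coding entry Rapgef2-202 had 49.7 FPKM with both treatments, 20.0 FPKM with interferon-gamma alone and 1.80 FPKM untreated, against 5.77 FPKM with doxycycline and 5.28 FPKM without in parental cells. In the authors' deposited table the processed transcript rose 13.5-fold with doxycycline and 5.36-fold without, and Rapgef2-202 rose 11.1-fold without. The third entry, the protein coding Rapgef2-206, had 20.3 FPKM with both treatments and 9.66 FPKM with interferon-gamma alone. It had 4.04 FPKM with doxycycline alone and 4.97 FPKM untreated. Rapgef2-206 was called higher with doxycycline, with a rebuilt ratio of 5.01. Without doxycycline its rebuilt ratio was 1.95 and it had no row. The counts of these families were the same after rescaling, except that 1 Rasa gene in place of 2 was higher with doxycycline.

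Entries of 1 gene went in opposite directions with interferon-gamma in 3 members, Tbc1d1, Fgd4 and Rab23. Tbc1d1, a Rab GAP of glucose transporter traffic, had 1.46 FPKM with both treatments, 1.38 FPKM with interferon-gamma alone, 0.406 FPKM with doxycycline alone and 0.404 FPKM untreated for entry Tbc1d1-201. Its entry Tbc1d1-203 had 4.49 FPKM with both treatments, 2.77 FPKM with interferon-gamma alone, 8.84 FPKM with doxycycline alone and 7.87 FPKM untreated. Tbc1d1-201 rose 3.41-fold and Tbc1d1-203 fell 2.84-fold without doxycycline in the authors' deposited table. Entry Tbc1d1-202 had 11.8 FPKM with both treatments, 3.26 FPKM with doxycycline alone and 2.58 FPKM untreated, and no level listed with interferon-gamma alone. With doxycycline Tbc1d1-202 rose 3.62-fold in the authors' deposited table, and Tbc1d1-203 had no row. Tbc1d1 is thus 1 of the 4 Tbc1d rises counted with doxycycline. Fgd4 (frabin) had 8.52 FPKM with both treatments and 2.55 FPKM with doxycycline alone for entry Fgd4-201, which rose 3.34-fold with doxycycline in the authors' deposited table. Entry Fgd4-206 had 4.64 FPKM with interferon-gamma alone and 12.5 FPKM untreated, a fall of 2.69-fold in the authors' deposited table. In Rab23 the protein coding entry was lower with interferon-gamma, and an entry annotated as a retained intron rose 3.69-fold without doxycycline in the authors' deposited table. That entry is 1 of the 9 Rab GTPase rises counted there. Entries of 1 gene share exons and reads, so their values are not independent.

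**Figure D3:**
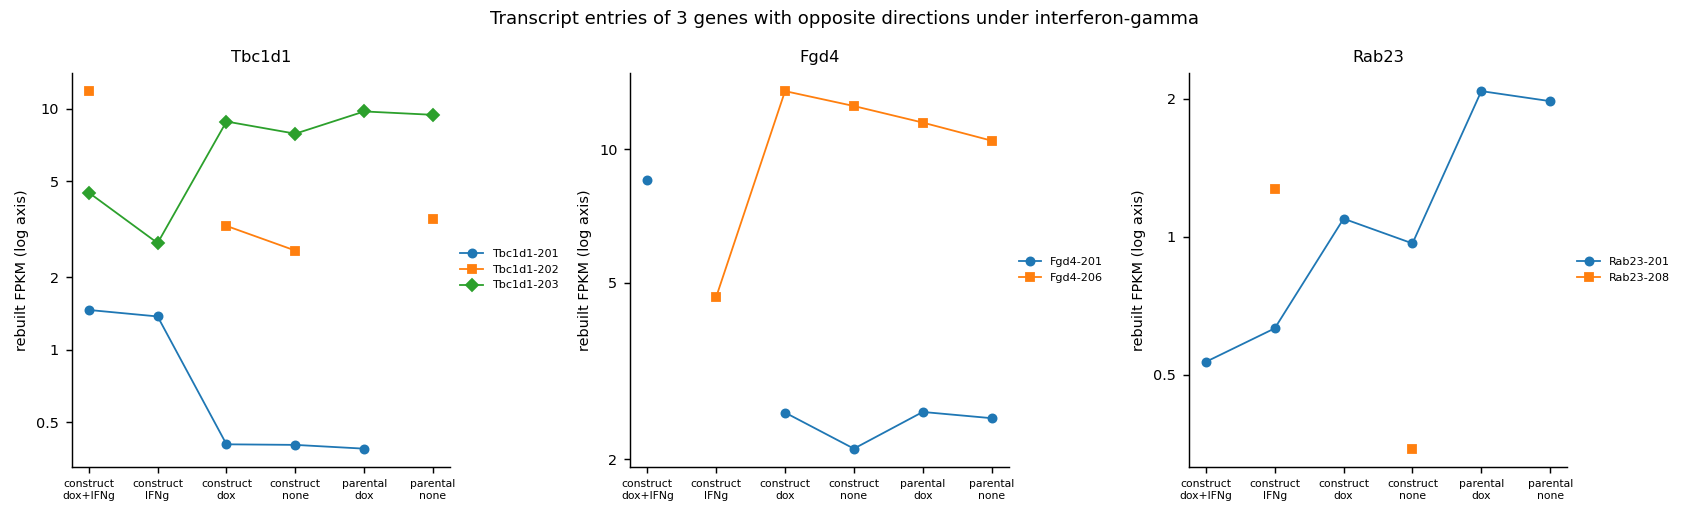
Rebuilt FPKM (log axis) of each transcript entry of Tbc1d1, Fgd4 and Rab23 in the 6 groups, 1 value of the authors per group. Entries of 1 gene lie on opposite sides: Tbc1d1-201 is at 1.46 and 1.38 FPKM with interferon-gamma and at 0.389 to 0.406 FPKM without it, while Tbc1d1-203 is at 4.49 and 2.77 FPKM with it and at 7.87 to 9.73 FPKM without it.

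Without interferon-gamma, doxycycline came with 1 member call in construct cells and 0 in parental cells. In parental cells 0 members were higher and 0 lower with doxycycline in the authors' deposited table (Cuffdiff, whose unadjusted p is not in the table), against a background of 0.111% higher and 0.798% lower. The rebuilt ratio of doxycycline over no treatment in parental cells had a median of 1.03 over 70 member entries of at least 1 FPKM and lay within 1.5-fold for 68 of them. In construct cells, where doxycycline induces CITED1, 1 member was higher (1.35%) and 0 were lower, against a background of 0.204% in each direction. This member was Dock6, a Rac and Cdc42 GEF, with 0.561 FPKM with doxycycline and 0.218 FPKM untreated, a rise of 2.57-fold with a q of 0.048 in the authors' deposited table. Over 73 member entries of at least 1 FPKM, which leave out Dock6-201, the rebuilt ratio of doxycycline over no treatment in construct cells had a median of 1.01 and lay within 1.5-fold for 72. The other entry was Rasgrp4-201, with a ratio of 1.51 and no row. Since entries come from a list of called changes, these ratios cover only entries whose level is known from other comparisons.

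Under interferon-gamma, 8 members were called between construct cells with and without doxycycline. Rapgef2, Arhgap11a, Rab7b, Rab20, Rab11fip1 and Rab19 were higher, and Rab3il1 and Tbc1d2 were lower, with both treatments than with interferon-gamma alone. These 6 higher and 2 lower calls are 8.11% and 2.70% of the members, against a background of 6.85% higher and 6.38% lower. Cited1 itself was 7.55-fold higher with both treatments than with only interferon-gamma, a value of the authors' deposited table. As no group of parental cells with interferon-gamma was among these samples, an effect of doxycycline itself under interferon-gamma and one of CITED1 cannot be told apart here.

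The 3 Rab GTPases among them, of endosomes, phagosomes and the Golgi, rose by similar folds. Rab7b had 33.4 FPKM with both treatments and 15.8 FPKM with interferon-gamma alone by entry Rab7b-201, a rise of 2.12-fold with a q of 0.003 in the authors' deposited table. The more abundant entry Rab7b-202 had 49.6 FPKM with both treatments and 27.2 FPKM with interferon-gamma alone, a rebuilt ratio of 1.82 without a row. Rab20 rose 2.10-fold and Rab19, a Rab described at the Golgi, rose 2.07-fold in the authors' deposited table. Rab19 had 11.2 FPKM with both treatments, 5.43 FPKM with interferon-gamma alone, 2.94 FPKM with doxycycline alone and 2.22 FPKM untreated, against 1.84 FPKM with doxycycline and 2.23 FPKM without in parental cells. Rab20 and Rab19 were also higher with interferon-gamma than without it in both comparisons (Rab19 by 3.82-fold with doxycycline and 2.44-fold without in the authors' deposited table), and Rab7b in the one with doxycycline. Rab11fip1 had 3.72 FPKM with both treatments, 1.79 FPKM with interferon-gamma alone, 1.84 FPKM with doxycycline alone and 1.81 FPKM untreated by entry Rab11fip1-202. It rose 2.08-fold with a q of 0.013 in the authors' deposited table.

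Rapgef2 rose 2.49-fold by Rapgef2-202 and 2.10-fold by Rapgef2-206 (q of 0.011) in the authors' deposited table. Its processed transcript had a rebuilt ratio of 2.50 without a row in this comparison. Arhgap11a rose 2.33-fold with a q of 0.017 by Arhgap11a-201 in the authors' deposited table, with 4.18 FPKM with both treatments and 1.79 FPKM with interferon-gamma alone, against 8.85 FPKM with doxycycline alone and 6.26 FPKM untreated. Its other entry had 4.94 FPKM with both treatments and 5.16 FPKM with interferon-gamma alone, a rebuilt ratio of 0.957. Arhgap11a was thus lower with interferon-gamma than without it in both comparisons, and higher with both treatments than with interferon-gamma alone by 1 entry of 2.

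Tbc1d2 and Rab3il1 fell. Tbc1d2 had 1.20 FPKM with both treatments, 4.45 FPKM with interferon-gamma alone, 7.16 FPKM with doxycycline alone and 8.28 FPKM untreated, against 9.04 FPKM with doxycycline and 8.90 FPKM without in parental cells. Its fall between the interferon-gamma groups was 3.73-fold in the authors' deposited table. Rab3il1 fell 6.62-fold with a q of 0.024 in the authors' deposited table by entry Rab3il1-208, with 0.188 FPKM with both treatments and 1.25 FPKM with interferon-gamma alone. The more abundant entry Rab3il1-202 had a rebuilt ratio of 0.210 and no row in this comparison. After rescaling by a shift of 0.10 on the log2 scale, Rapgef2 and Arhgap11a were still at least 2-fold higher and Tbc1d2 and Rab3il1 at least 2-fold lower, while the other 4 were under 2-fold.

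Levels for both interferon-gamma groups were known for 65 member entries. Over the 61 of them with at least 1 FPKM in either group, the rebuilt ratio of both treatments over interferon-gamma alone had a median of 1.10, with the 10th and 90th percentiles at 0.514 and 2.10, and 36 lay above 1 (59.0%). Over all 3677 listed entries the median was 1.07, and 56.8% lay above 1. Within 1.5-fold were 34 of the 61. Among them, ratios past 2-fold without a row were those of Dock6 at 2.11, Rapgef5 at 0.355, Rasgrp3 at 0.477 and the Rasgrp4 retained intron at 2.17, beside the Rapgef2 and Rab3il1 entries above. Arhgap19, outside the 61 with 0.194 FPKM with both treatments and 0.464 FPKM with interferon-gamma alone, had a ratio of 0.418 and no row. Without a replicate value, whether these differ beyond error was not tested. Just under 2-fold were Tbc1d9-201, with a ratio of 1.97, and Rasa3, with an inverse ratio of 1.97.

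**Figure D4:**
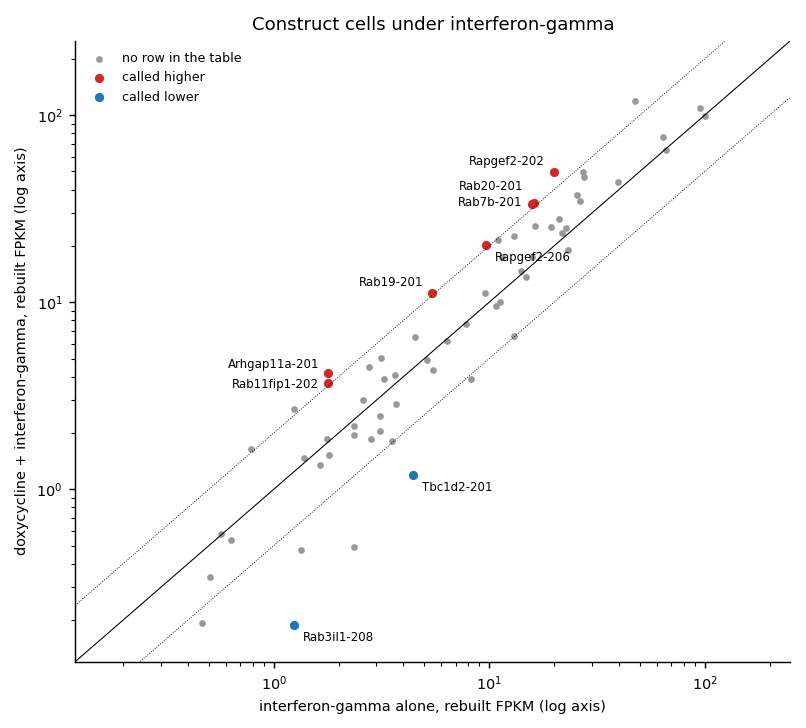
Rebuilt FPKM of member entries in construct cells with doxycycline and interferon-gamma (vertical, log axis) against interferon-gamma alone (horizontal, log axis), 1 point per entry, with lines at equality and at 2-fold; labelled points are called in the authors' deposited table. Rapgef2-202 lies at 49.7 against 20.0 FPKM and Tbc1d2-201 at 1.20 against 4.45 FPKM.

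Few members were called between construct and parental cells, as were few of all listed genes. Without doxycycline, 2 members were higher (2.70%) and 1 was lower (1.35%) in construct cells, against a background of 1.74% higher and 2.8% lower. With doxycycline in both, 3 were higher (4.05%) and 1 lower (1.35%), against 2.41% and 3.19%. Rasgrp4 and Arhgef40 (Solo) were higher in both comparisons. Rasgrp4-201 had 1.34 FPKM with doxycycline and 0.885 FPKM without in construct cells, against 0.368 FPKM with doxycycline and 0.254 FPKM without in parental cells. It was higher by 3.64-fold (q of 0.006) with doxycycline and by 3.49-fold (q of 0.04) without in the authors' deposited table.

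Arhgef40-220 had 4.45 FPKM with doxycycline and 3.83 FPKM without in construct cells, against 1.56 FPKM with doxycycline and 1.59 FPKM without in parental cells. It was higher by 2.84-fold with doxycycline and by 2.41-fold without in the authors' deposited table, and had no row for interferon-gamma against none with the same doxycycline treatment, at 4.36 FPKM with both treatments and 5.48 FPKM with interferon-gamma alone. Fgd2, a Cdc42 GEF of antigen-presenting cells, had 8.76 FPKM with doxycycline in construct cells and 3.96 FPKM with doxycycline in parental cells, 2.21-fold higher in the authors' deposited table. Lower in construct cells were Tbc1d9 with doxycycline and Rab23 without it, each by 2.04-fold in the authors' deposited table. Without doxycycline, ratios past 2-fold with no row were those of Rapgef2-202 at 0.341, with 1.80 FPKM in construct and 5.28 FPKM in parental cells, and of the Rasgrp4 retained introns at 2.06 and 2.10. Rab23-201 had 1.10 FPKM with doxycycline and 0.968 FPKM without in construct cells, against 2.08 FPKM with doxycycline and 1.98 FPKM without in parental cells.

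**Figure D5:**
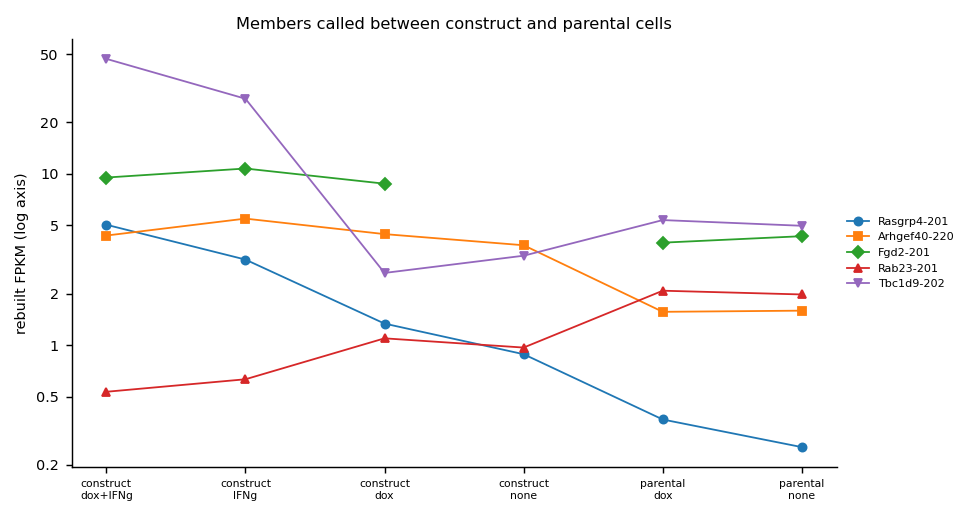
Rebuilt FPKM of the 5 members called between construct and parental cells, in all 6 groups, 1 value of the authors per group. Rasgrp4-201 is at 1.34 and 0.885 FPKM in unstimulated construct cells and at 0.368 and 0.254 FPKM in parental cells.

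Other regulators of small GTPases, from lists of genes outside the named families, were also called with interferon-gamma. The background over all 5390 listed genes, as deposited, was 33.7% higher and 33.9% lower with doxycycline, and 25.7% higher and 24.3% lower without it. Whether any list differs from this background was not tested. Of 39 Rab exchange factors and effectors 17 had a row, and 6 rose and 6 fell with doxycycline while 4 rose and 1 fell without it (rescaled, 2 and 6 with doxycycline and 3 and 1 without). Of 54 Arf and Arl GTPases and regulators 22 had a row, and 12 rose and 5 fell with doxycycline while 8 rose and 3 fell without it (rescaled, 4 and 5 with doxycycline and 5 and 3 without). Acap1, a GAP of Arf6, rose 12.5-fold with doxycycline, to 22.6 FPKM against 1.81 FPKM, and 22.5-fold without, to 40.4 FPKM against 1.79 FPKM, in the authors' deposited table. Of 46 other Ras, Rap and Ral genes 19 had a row, with 8 rises and 5 falls with doxycycline and 4 rises and 3 falls without it (rescaled, 2 and 5 with doxycycline and 2 and 3 without). Between the interferon-gamma groups, Arl4a, an Arf-like GTPase, and Dennd1b, a Rab35 exchange factor, were higher with both treatments. The authors' deposited table gives 2.06-fold for Arl4a and 2.29-fold for Dennd1b, and falls of 2.59-fold for Rilpl1 and 2.16-fold for Rassf7.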

How the data were processed

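Poly(A)-selected, strand-specific libraries of 18 RAW264.7 samples were made, per the labels' protocols. Tools listed in the submitters' processing notes, with no role stated, are Cuffdiff 2.2.1, edgeR, featureCounts, STAR 2.5.3a and FastQC 0.11.5. Genome build, annotation and the scaling of FPKM between libraries: not given in the sources used here. Per the file headers, each row of the deposited table gives a linear ratio (fold) between 2 groups, its direction, 1 FPKM total over both groups, and the authors' q-value (an adjusted p-value). The table has 112230 rows; 77406 name groups outside the 6 used here and were left out, which left 34824 rows over 15 pairs of groups. It holds 0 columns of values per sample, so depth and replicate error are unknown. The lowest fold used was 2 and the largest q 0.0499; 413 member rows (76.5%) share the smallest q of 3.9e-04.

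With Python 3.11.15, pandas 2.3.3 and numpy 2.4.6, the total was read as the sum of both groups and split in the proportion of the fold to 1; levels from several rows were joined by their median. A gene was called higher or lower when all its called entries went that way, and the entry of highest summed FPKM is printed. Of the 108 member entries, 107 were found with the same name in GENCODE M21, 97 of them protein coding, and 10 of another biotype. 1 entry with a joined name was left out. Backgrounds use all 5390 named genes with a row. The main comparisons are 7 of the 15 pairs; the others gave levels only. Full levels were given for members called between lines or with doxycycline, and for those with the largest folds of each family with interferon-gamma. The members, lists and alternatives were chosen with earlier results of these data known, and 2 alternatives were added after seeing the data. The scripts were tested on simulated data. The counts of some related gene lists are not reported here.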

Additional observations from a re-analysis of the deposited data

How the results depend on the processing

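Rescaling the called rows of each comparison to a median log2 ratio of 0, which in the interferon-gamma comparisons takes out rises near 2-fold by construction and cannot add falls, moved the counts of higher members most: 8 in place of 37 for interferon-gamma with doxycycline, 10 in place of 27 without it, and 2 in place of 6 for both treatments over interferon-gamma alone. It also left 0 in place of 1 member lower in construct than in parental cells, both with doxycycline (Tbc1d9) and without it (Rab23). With a q of 0.01 or less, 1 in place of 2 members was lower with both treatments than with interferon-gamma alone, 1 in place of 2 was higher in construct than in parental cells without doxycycline, and 0 in place of 1 was higher with doxycycline in unstimulated construct cells. With at least 1 FPKM in either group, the last 2 counts were again 1 and 0, and with a pseudocount of 1 FPKM and at least 1.5-fold the last was 0. Without the Rab partner genes, an alternative added after the data were seen, 1 in place of 2 members was lower with both treatments than with interferon-gamma alone. The other alternatives, counting entries and leaving out entries not annotated as protein coding among them, kept each count within 1.5 times. Rescaling turned the members' balance for interferon-gamma with doxycycline to 8 higher and 20 lower, against 37 higher and 20 lower as deposited, and put Arhgef2, Rab11fip1 and Rab5a below the median entry; in the other 6 comparisons 0 called members changed sign. Of 18 single values, 7 were under 2-fold after rescaling, 7 missed a q of 0.01 and 2 missed the pseudocount rule; apart from these arithmetic effects the cause was not tested.

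No paired analysis was possible because the deposited table holds no values per sample. Leaving out a replicate was not run for the same reason. The calls carry the authors' q alone, depth is unknown, and genes without a row, or at 0 in a group, cannot be compared. Entries such as Dock6-201 and Rab3il1-208, under 2 FPKM in the groups compared, rest on an unknown number of fragments. Parental cells with interferon-gamma, which would separate doxycycline from CITED1, were not analysed here.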

Other observations

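For 9 members the table has rows only in the other 8 pairs of groups, which differ in more than 1 factor, and so they entered none of the 7 comparisons: Arhgap10, Arhgap12, Arhgef10, Dock11, Rab11fip2, Rab11fip3, Rapgef1, Tbc1d5 and Tbc1d8b. Rapgef1, a Rap1 exchange factor, had 7.38 FPKM with both treatments in construct cells and 1.78 FPKM in untreated parental cells. Arhgap10 had 11.2 FPKM with both treatments in construct cells and 22.4 FPKM with doxycycline in parental cells. Dock11, a Cdc42 exchange factor of leukocytes, had 8.26 FPKM with both treatments, against 4.09 FPKM in untreated construct cells, and 4.13 FPKM with doxycycline and 3.74 FPKM without in parental cells. Tbc1d5, which acts on Rab7 and retromer, had 1.35 FPKM with both treatments and 1.64 FPKM with interferon-gamma alone in construct cells, against 3.36 FPKM in untreated parental cells.

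Entries annotated as retained introns rose with interferon-gamma beside the protein coding entries of Rasa4 and Rasgrp4. Rasa4-209 had 17.4 FPKM with both treatments, 11.5 FPKM with interferon-gamma alone, 2.76 FPKM with doxycycline alone and 3.15 FPKM untreated, and rose 6.30-fold with doxycycline and 3.66-fold without in the authors' deposited table. Rasgrp4-204 had 2.69 FPKM with both treatments, 1.24 FPKM with interferon-gamma alone, 0.468 FPKM with doxycycline alone and 0.369 FPKM untreated, and rose 5.75-fold with doxycycline and 3.37-fold without in the authors' deposited table. In Arhgef6 the retained intron entry fell with the coding entries, to 7.69 FPKM with both treatments and 7.82 FPKM with interferon-gamma alone, against 22.9 FPKM with doxycycline alone and 24.1 FPKM untreated. Entries of 1 gene share exons and are not independent.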
